A study of Mus musculus with 10 samples.

Results

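The genes described here are the 10 genes that make, export, break down and sense sphingosine-1-phosphate (S1P), taken from a count table of 23284 gene symbols by their names: the kinases Sphk1 and Sphk2, the exporter Spns2, the phosphatase Sgpp1, the lyase Sgpl1 and the receptors S1pr1, S1pr2, S1pr3, S1pr4 and S1pr5. All 10 had a row and passed the filter on low counts, S1pr5 with a mean of only 10.5 normalized counts in its highest population, and 15374 genes were tested. RNA was measured in 3 freshly sorted endothelial populations of wild-type C57BL/6 (B6) mice aged 6 to 8 weeks: LN-LEC, the lymphatic endothelial cells from lymph nodes (4 libraries), LN-BEC, the blood endothelial cells from lymph nodes (3 libraries), and D-LEC, lymphatic endothelial cells from the diaphragm (3 libraries). The nodes of a library were inguinal, axillary, brachial, cervical and mesenteric nodes combined, so levels are averages over node sites and over the mice of a pool. Cells lacking CD45 and bearing CD31 were sorted, and PDPN (podoplanin) separated LEC from BEC. Within a population the libraries are separate samples, and p-values measure the spread between such pools. The comparisons ask which S1P genes distinguish lymphatic from blood endothelium of the same nodes, and node from peripheral lymphatic endothelium.

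S1P is a lipid signal made inside cells by phosphorylation of sphingosine, a breakdown product of ceramide. Endothelial cells release it through SPNS2, and lymphatic endothelium is a known source of the S1P in lymph that draws lymphocytes out of lymph nodes. Phosphatases return S1P to sphingosine and the lyase cleaves it for good, while a family of G protein coupled receptors on endothelial cells, lymphocytes and other cells reads it from outside. S1PR1 couples to Gi and strengthens endothelial junctions, and S1PR2 and S1PR3 also couple to G12/13 and Gq.

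The libraries held 22429940 to 48906070 counted fragments. Levels are given as normalized counts (counts divided by DESeq2 size factors), and levels of different genes are compared only as FPKM (fragments scaled to exon length and library size). The summed normalized counts of 5 lymphatic markers (Lyve1, Pdpn, Prox1, Reln and Flt4) ranged from 94668 to 119450 in LN-LEC and from 387239 to 415551 in D-LEC, against 2891 to 7955 in LN-BEC. Those of 4 blood endothelial markers (Nrp1, Flt1, Vwf and Notch4) ranged from 69497 to 72713 in LN-BEC, 818 to 1374 in LN-LEC and 449.9 to 633 in D-LEC, so the markers of each label were present. LN-LEC replicate 4 and LN-BEC replicate 3 stood farthest from the other libraries of their populations, with a chi-square per gene against counting error of 119 to 155 and 314 to 391, where the other pairs gave 10.5 to 42.1. Muscle markers (Acta1, Ckm, Myh4 and Tnnt3) summed to 716 to 890 normalized counts in D-LEC and to at most 14.9 in the node libraries. Myeloid markers summed to 156 to 221 in LN-LEC, 254 to 448 in LN-BEC and 386 to 718 in D-LEC. Cd68 made up most of each sum, with means of 144, 284 and 451 in that order, and Csf1r had 35.5, 25.7 and 58.3. The means of Itgam (1.42, 6.93 and 3.44) and Itgax (2.97, 3.84 and 1.76) were highest in LN-BEC. Platelet and erythroid markers summed to 785 to 970, 1228 to 1783 and 80.97 to 224 in the same order. Most of the node sums came from Pf4 alone, whose means were 861, 1528 and 74.4. The means of 2 other platelet genes, Ppbp (2.36, 20.8 and 55.5) and Gp9 (0, 0.868 and 4.78), were instead highest in D-LEC. The haemoglobin gene Hbb-b1 was at 0 in all libraries. All genes below lie at the given positions of mouse build mm9.

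Between the lymphatic and the blood endothelium of lymph nodes, 6 of the 10 genes differed. Spns2, Sgpp1, Sgpl1 and S1pr2 were higher in LN-LEC, and S1pr1 and S1pr4 were higher in LN-BEC (edgeR quasi-likelihood test, adjusted p under 0.05). Over all genes tested, 38.2% were called, 19.8% as higher in LN-LEC and 18.4% as higher in LN-BEC. Between the lymphatic endothelium of nodes and of diaphragm, 5 of the 10 differed and all 5 (Sphk1, Sgpp1, Sgpl1, S1pr2 and S1pr3) were higher in LN-LEC, where 45.8% of all genes were called, 24% as higher in LN-LEC and 21.7% as higher in D-LEC. Between D-LEC and LN-BEC, 6 of 10 differed, with Spns2 higher in D-LEC and Sphk1, S1pr2, S1pr3, S1pr4 and S1pr5 higher in LN-BEC. Of all genes 48% were called there, 22.4% as higher in D-LEC and 25.6% as higher in LN-BEC. The median log2 fold change of the 10 genes was 0.23 for LN-LEC over LN-BEC, 0.59 for LN-LEC over D-LEC and -0.46 for D-LEC over LN-BEC, beside medians over all genes of -0.0080, 0.026 and -0.046. Each population enters 2 of these comparisons, so they are not independent of each other. D-LEC and LN-BEC differ in both lineage and tissue, which their comparison cannot tell apart. In all, 9 of 10 genes were called in at least 1 comparison, and 1, S1pr2, in all 3, where 64.5% and 16.5% of all genes tested were called. Sphk2 was called in none. Without both LN-LEC replicate 4 and LN-BEC replicate 3, 6, 6 and 5 of the 10 genes were called in these comparisons. In RNA of sorted cells, fewer cells that express a gene and less RNA per cell cannot be told apart.

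**Figure D1:**
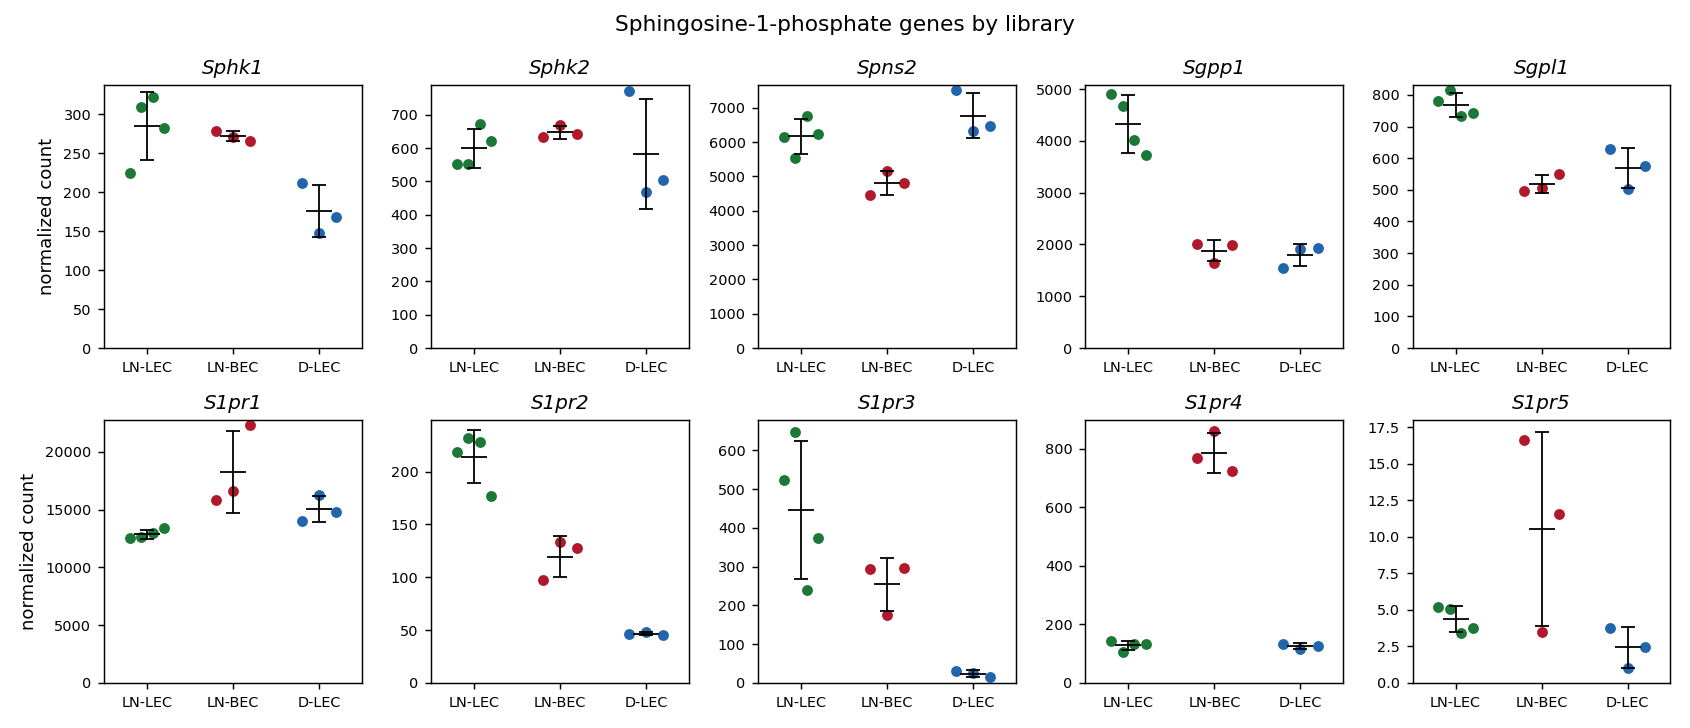
Normalized counts of the 10 S1P genes in each library of LN-LEC (4 libraries), LN-BEC (3) and D-LEC (3). Points are libraries, horizontal bars and whiskers are mean ± SD, and each panel has its own axis from 0. Sgpp1, Sgpl1 and S1pr2 sit highest in the LN-LEC libraries, S1pr4 in LN-BEC, and S1pr3 is at 31.5 or below in all D-LEC libraries.

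**Figure D2:**
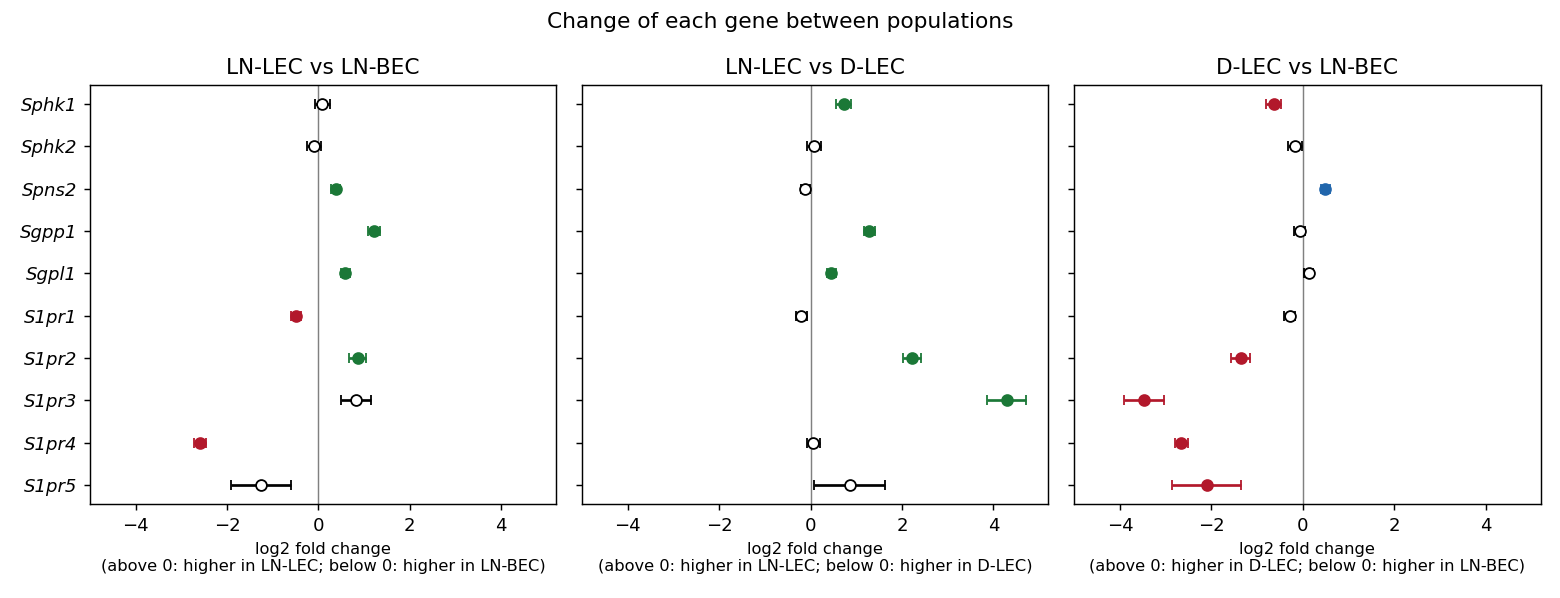
Fitted log2 fold change ± SE of each gene in the 3 comparisons, from 1 edgeR fit to 10 libraries. Filled points passed an adjusted p of 0.05 and take the colour of the population with the higher level (green LN-LEC, red LN-BEC, blue D-LEC), and open points did not pass. The widest changes are those of S1pr3 against D-LEC, at 4.30 and -3.47.

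Of the kinases that make S1P, Sphk1 was lower in D-LEC than in both node populations, and Sphk2 was called in no comparison. Sphk1 (chr11:116393225-116397989, plus strand), the kinase found mainly in the cytoplasm and at the plasma membrane, gave 224, 310, 322 and 283 normalized counts in the 4 LN-LEC libraries, 278, 271 and 266 in LN-BEC and 212, 147 and 169 in D-LEC. All 3 D-LEC libraries lay below every library from the nodes, and the LN-LEC and LN-BEC libraries overlapped. Sphk1 was 1.65-fold higher in LN-LEC than D-LEC (log2 fold change 0.72, SE 0.16, edgeR adjusted p = 0.00238). It was 1.56-fold higher in LN-BEC than D-LEC (log2 fold change of D-LEC over LN-BEC -0.64, SE 0.17, edgeR adjusted p = 0.00734). Between the populations of the nodes the difference of 0.085 did not pass the test (SE 0.16, edgeR adjusted p = 0.71).

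Sphk2 (chr7:52964833-52973372, minus strand), a kinase found also in the nucleus and mitochondria, gave 552, 551, 672 and 622 normalized counts in LN-LEC, 632, 669 and 642 for LN-BEC and 772, 469.9 and 504 for D-LEC. The D-LEC libraries spanned both node populations, because D-LEC replicate 1 was the highest library of all 10 and the other two were the lowest. No comparison passed the test, with edgeR adjusted p of 0.66, 0.72 and 0.41 for LN-LEC over LN-BEC, LN-LEC over D-LEC and D-LEC over LN-BEC. Without D-LEC replicate 1, Sphk2 was lower in D-LEC than in LN-LEC (log2 fold change of LN-LEC over D-LEC 0.31, edgeR adjusted p = 0.039) and than in LN-BEC (-0.41, edgeR adjusted p = 0.013), so this library decides the call. Within the 4163 exon bases of Sphk2, 539 were shared with Dbp, a clock-controlled transcription factor gene on the same stretch of chromosome 7, and fragments overlapping both genes were not counted. Dbp had 75.7, 57.1 and 231 normalized counts in D-LEC, where replicate 2 was lowest for both genes and replicate 3 had the most Dbp. The part of this overlap in the spread of Sphk2 was not tested. Per length, the ratio of Sphk2 to Sphk1 was 1.18 ± 0.156 (SD, n = 4) in LN-LEC, 1.32 ± 0.0575 (n = 3) in LN-BEC and 1.81 ± 0.184 (n = 3) in D-LEC, where all 3 libraries lay above those of the nodes. The summed FPKM of both kinases was 8.78 ± 0.974 in LN-LEC, 8.86 ± 0.232 for LN-BEC and 7.03 ± 1.74 for D-LEC, and the libraries overlapped.

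Spns2 (chr11:72265140-72303406, minus strand), the S1P exporter, was higher in both lymphatic populations than in LN-BEC. It gave 6149, 5534, 6745 and 6221 normalized counts in LN-LEC, 4455, 5147 and 4801 for LN-BEC and 7509.9, 6320.2 and 6475 for D-LEC. Every lymphatic library lay above every LN-BEC library, while LN-LEC and D-LEC overlapped. The level was 1.30-fold higher in LN-LEC than LN-BEC (log2 fold change 0.38, SE 0.094, edgeR adjusted p = 0.00548) and 1.403-fold higher in D-LEC than LN-BEC (0.49, SE 0.099, edgeR adjusted p = 0.00109). LN-LEC and D-LEC differed by an amount that did not pass the test (log2 fold change -0.11, SE 0.093, edgeR adjusted p = 0.35). LN-BEC still held 47.9 ± 3.73 FPKM of Spns2 (SD, n = 3), above 91.3% of the genes tested in that population, beside 62.2 ± 4.97 (n = 4) in LN-LEC and 67.8 ± 6.44 (n = 3) in D-LEC. Set against the summed FPKM of the kinases, Spns2 was 7.14 times as high in LN-LEC (6.39 to 8.24), 5.41 times in LN-BEC (5.03 to 5.70) and 9.88 times in D-LEC (8.34 to 11.02). These ranges did not overlap, with D-LEC highest and LN-BEC lowest, and no test was made of the ratio.

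Both breakdown genes among the 10, Sgpp1 and Sgpl1, were highest in LN-LEC. Other phosphatases that act on S1P, described further below, did not all follow them, and Plpp1 and Plpp3 were lowest in LN-LEC. Sgpp1 (chr12:76815235-76836716, minus strand), a phosphatase of the endoplasmic reticulum that returns S1P to sphingosine, gave 4911, 4674, 4012 and 3718 normalized counts in LN-LEC, 2012, 1652 and 1981 for LN-BEC and 1546, 1914 and 1933 for D-LEC. All LN-LEC libraries lay above all others, and LN-BEC and D-LEC overlapped. Sgpp1 was 2.33-fold higher in LN-LEC than LN-BEC (log2 fold change 1.22, SE 0.12, edgeR adjusted p = 2.56e-06) and 2.44-fold higher than in D-LEC (1.29, SE 0.12, edgeR adjusted p = 1.38e-06). Between D-LEC and LN-BEC it differed by -0.069 on the log2 scale (SE 0.13, edgeR adjusted p = 0.68).

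Sgpl1 (chr10:60561390-60610413, minus strand), the lyase that cleaves S1P irreversibly, gave 780.3, 815, 733 and 744 normalized counts in LN-LEC, 496, 506 and 550.4 for LN-BEC and 628, 504 and 574 for D-LEC. The LN-LEC libraries again lay above all others, by a smaller step than for Sgpp1. The change was 1.5-fold over LN-BEC (log2 fold change 0.58, SE 0.098, edgeR adjusted p = 0.000262) and 1.37-fold over D-LEC (0.46, SE 0.097, edgeR adjusted p = 0.00166). D-LEC and LN-BEC differed by 0.13 (SE 0.10, edgeR adjusted p = 0.33). Per length, Sgpp1 exceeded Sgpl1 by 6.98-fold in LN-LEC (6.20 to 7.81), 4.51-fold in LN-BEC (4.05 to 5.03) and 3.98-fold in D-LEC (3.05 to 4.71), so the ratio in every LN-LEC library was above that in every other library. The summed FPKM of both breakdown genes over that of both kinases was 5.65 ± 1.23 (SD, n = 4) in LN-LEC, 2.53 ± 0.265 (n = 3) in LN-BEC and 3.29 ± 0.932 (n = 3) in D-LEC. Every LN-LEC library exceeded every other library in this ratio, and the ranges of LN-BEC and D-LEC overlapped. The ratio counts only Sgpp1 and Sgpl1 as breakdown and leaves out the other phosphatases. Plpp3 had a mean of 10.1 FPKM for LN-LEC, 194 for LN-BEC and 48.2 for D-LEC, and Plpp1 had 31.6, 134 and 140. Plpp2, at 7.08, 7.27 and 4.70, was not lowest in LN-LEC. The ratio therefore gives no order of the populations for S1P breakdown as a whole.

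The 250 bases before the RefSeq start of these genes are shown because their levels moved together over the libraries (Pearson r = 0.89 over 10 libraries, a description of points that share populations). Capitals mark letters of 3 motifs searched on both strands in all promoters of the RefSeq table: CACCC or GGGTG (an element bound by KLF factors), CCGGAA or TTCCGG (ETS factors) and TGACTCA or TGAGTCA (AP-1). None of the motifs contains another. Among 32851 promoters of this length, 52% held the KLF letters, 12% the ETS letters and 4.46% the AP-1 letters. Sequences come from RefSeq on build GRCm38.p6, and each had 1 exact match on its chromosome in mm9, the build of the counts. The Sgpp1 window is chr12:76836717-76836966, minus strand, and the Sgpl1 window is chr10:60610433-60610682, minus strand.
Sgpp1: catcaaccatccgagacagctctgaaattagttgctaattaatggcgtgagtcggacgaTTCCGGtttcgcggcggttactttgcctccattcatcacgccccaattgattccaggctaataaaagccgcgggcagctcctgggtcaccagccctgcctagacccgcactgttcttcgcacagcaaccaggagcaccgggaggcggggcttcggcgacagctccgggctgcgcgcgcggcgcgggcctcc
Sgpl1: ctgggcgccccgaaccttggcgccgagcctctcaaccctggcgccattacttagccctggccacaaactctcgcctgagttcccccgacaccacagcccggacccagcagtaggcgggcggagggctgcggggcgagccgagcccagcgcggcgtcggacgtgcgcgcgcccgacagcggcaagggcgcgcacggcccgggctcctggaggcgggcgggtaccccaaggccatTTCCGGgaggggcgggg
Each held the ETS letters 1 time and neither of the other motifs. A match of letters is a description and not a binding site.

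Among the receptors, S1pr1 dominated in every population and the other receptors took small shares that differed between populations. S1pr1 (chr3:115413351-115417973, minus strand), the receptor through which S1P supports endothelial barrier function, gave 12551, 12593, 13022 and 13384 normalized counts in LN-LEC, 15819.7, 16652 and 22306 for LN-BEC and 14031, 16260.3 and 14821.5 for D-LEC. All LN-LEC libraries lay below all libraries of the other populations, and LN-BEC replicate 3 stood well above the rest. S1pr1 was 1.401-fold higher in LN-BEC than LN-LEC (log2 fold change of LN-LEC over LN-BEC -0.49, SE 0.11, edgeR adjusted p = 0.00349). This call was kept in each of the 16 alternatives, with values from -0.58 to -0.33. Against D-LEC the libraries of LN-LEC did not overlap, but the change of -0.20 did not pass the test (SE 0.11, edgeR adjusted p = 0.17). Between D-LEC and LN-BEC the change of -0.28 did not pass (SE 0.12, edgeR adjusted p = 0.070). It did pass with DESeq2's Wald test (-0.29, adjusted p = 0.048), without LN-BEC replicate 1 (-0.37, edgeR adjusted p = 0.026) and without D-LEC replicate 2 (-0.35, edgeR adjusted p = 0.0496).

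S1pr1 held 139 ± 4.47 FPKM in LN-LEC (SD, n = 4), 195 ± 35.9 for LN-BEC (n = 3) and 161 ± 12.3 for D-LEC (n = 3), above 97.4%, 98.2% and 97.7% of the genes tested. Of the summed FPKM of the 5 receptors, it took 94.8 ± 0.967% in LN-LEC, 93.2 ± 1.25% for LN-BEC and 98.5 ± 0.206% for D-LEC. The D-LEC libraries, at 98.3 to 98.7%, lay above all others, and LN-LEC (93.8 to 95.7%) overlapped LN-BEC (92.4 to 94.6%). The remainder differed in kind. By mean share S1pr3 was the next receptor in LN-LEC with 2.23 ± 0.910% of the sum, followed by S1pr2 with 1.70 ± 0.228% and S1pr4 with 1.20 ± 0.150%. In LN-LEC replicate 3, however, S1pr3 (1.196%) lay below both S1pr2 (1.807%) and S1pr4 (1.231%). In LN-BEC S1pr4 took 5.22 ± 1.16%, and S1pr3 and S1pr2 took 0.887 ± 0.252% and 0.664 ± 0.115%. In D-LEC S1pr4 took 1.05 ± 0.151%, and S1pr2 and S1pr3 fell under it with 0.330 ± 0.0194% and 0.105 ± 0.0431%. Per length, S1pr1 exceeded Spns2 by 4.08-fold in LN-BEC (3.46 to 4.97) and by 2.25-fold and 2.40-fold in LN-LEC (2.07 to 2.44) and D-LEC (1.999 to 2.75), so receptor to exporter was highest in all LN-BEC libraries.

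S1pr2 (chr9:20770396-20781237, minus strand), a receptor that couples to G12/13, was the gene called in all 3 comparisons. It gave 219, 232, 228 and 177 normalized counts in LN-LEC, 97.2, 133 and 128 for LN-BEC and 46.7, 48.1 and 45.4 for D-LEC. The 3 populations did not overlap, and the D-LEC libraries varied least. S1pr2 was 1.81-fold higher in LN-LEC than LN-BEC (log2 fold change 0.86, SE 0.18, edgeR adjusted p = 0.00195), and 4.64-fold higher than in D-LEC (2.21, SE 0.20, edgeR adjusted p = 7.09e-07). It was 2.56-fold higher in LN-BEC than D-LEC (log2 fold change of D-LEC over LN-BEC -1.36, SE 0.21, edgeR adjusted p = 9.15e-05).

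S1pr3 (chr13:51503987-51518166, plus strand), a receptor that couples to Gi, Gq and G12/13, was much lower in D-LEC than in the node populations. It gave 522, 647, 241 and 373 normalized counts in LN-LEC, 293, 176 and 295 for LN-BEC and 31.5, 25.05 and 14.05 for D-LEC. Every node library lay far above every D-LEC library, whereas LN-LEC and LN-BEC overlapped. S1pr3 was 19.6-fold higher in LN-LEC than D-LEC (log2 fold change 4.30, SE 0.43, edgeR adjusted p = 1.115e-05), and 11.1-fold higher in LN-BEC than D-LEC (D-LEC over LN-BEC -3.47, SE 0.43, edgeR adjusted p = 5.98e-05). LN-LEC over LN-BEC, at 0.82 (SE 0.33), did not pass the test (edgeR adjusted p = 0.078). That comparison passed with DESeq2's Wald test (0.81, adjusted p = 0.033) and without LN-LEC replicate 3 (1.03, edgeR adjusted p = 0.012). S1pr3 was also the most variable of the 10 genes within LN-LEC, with a coefficient of variation of 39.6% against 3.05% for S1pr1.

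Markers of fibroblasts and pericytes varied within the populations too, and 3 of 4 (Pdgfra, Des and Col1a1) were lowest in the same node libraries as S1pr3. In D-LEC all 4 were lowest in replicate 2, while S1pr3 was lowest in replicate 3. LN-LEC replicate 3 was the lowest LN-LEC library for S1pr3 and also for Pdgfra (94.98, others 128 to 298) and Col1a1 (227, others 466 to 609), and LN-BEC replicate 2 was the lowest LN-BEC library for S1pr3, Pdgfra (97.7, others 284 and 288) and Col1a1 (240.4, others 578 and 736). Pdgfrb was instead lowest in LN-LEC replicate 2 (63.5, against 65.6 in replicate 3), the library with the most S1pr3 (647). All 4 markers of the list (Pdgfra, Pdgfrb, Des and Col1a1) were detected in all populations, and their summed normalized counts ranged from 460.2 to 1170.5 in LN-LEC, 764 to 1555 in LN-BEC and 271 to 1160.4 in D-LEC. In D-LEC replicate 1 the sum was 1160.4 while S1pr3 was 31.5. Of the 4, 2 were higher in LN-LEC than D-LEC, 1 was higher in LN-BEC than LN-LEC and 2 were higher in LN-BEC than D-LEC. Their part in the differences of S1pr3 was not tested.

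The promoters of S1pr2 and S1pr3 are shown because the levels of these receptors had the highest correlation among pairs of the 10 genes (Pearson r = 0.93 over 10 libraries, a description). Capitals mark the same motif letters. The S1pr2 window is chr9:20781238-20781487, minus strand of mm9, the S1pr3 window is chr13:51503737-51503986, plus strand, and the S1pr4 window, shown for the receptor that set LN-BEC apart, is chr10:80962883-80963132, minus strand.
S1pr2: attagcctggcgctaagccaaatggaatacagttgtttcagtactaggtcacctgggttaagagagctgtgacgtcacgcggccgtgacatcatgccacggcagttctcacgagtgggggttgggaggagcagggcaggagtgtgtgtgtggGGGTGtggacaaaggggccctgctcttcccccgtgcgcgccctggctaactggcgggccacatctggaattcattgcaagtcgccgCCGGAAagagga
S1pr3: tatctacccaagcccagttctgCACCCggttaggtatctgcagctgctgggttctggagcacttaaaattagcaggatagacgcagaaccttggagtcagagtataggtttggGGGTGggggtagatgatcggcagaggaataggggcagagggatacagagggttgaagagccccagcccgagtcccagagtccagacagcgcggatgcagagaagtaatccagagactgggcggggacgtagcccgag
S1pr4: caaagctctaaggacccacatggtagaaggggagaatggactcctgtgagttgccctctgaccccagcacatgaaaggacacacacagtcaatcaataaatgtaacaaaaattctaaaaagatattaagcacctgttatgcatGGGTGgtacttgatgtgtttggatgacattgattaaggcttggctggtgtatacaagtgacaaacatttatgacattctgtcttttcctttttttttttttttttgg
S1pr2 held the KLF letters 1 time and the ETS letters 1 time, S1pr3 the KLF letters 2 times, and S1pr4 the KLF letters 1 time, letters that 52% of all promoters hold. None of the 3 held the AP-1 letters.

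S1pr4 (chr10:80960490-80962882, minus strand), a receptor known mainly from lymphocytes and other blood cells, was higher in LN-BEC than in either lymphatic population. It gave 770.3, 862 and 726 normalized counts in LN-BEC, 143, 105, 132 and 134 in LN-LEC and 134, 115 and 127 in D-LEC. The LN-BEC libraries lay well above all others, and LN-LEC and D-LEC overlapped throughout. The level in LN-BEC was 6.04-fold that in LN-LEC (log2 fold change of LN-LEC over LN-BEC -2.59, SE 0.13, edgeR adjusted p = 2.425e-09) and 6.30-fold that in D-LEC (D-LEC over LN-BEC -2.65, SE 0.14, edgeR adjusted p = 3.14e-09). LN-LEC and D-LEC differed by 0.061 (SE 0.14, edgeR adjusted p = 0.74).

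Ptprc and most of the T cell markers were higher in the same population. Ptprc, the gene of the CD45 by which cells were depleted and sorted out, gave 321, 324 and 208 normalized counts in LN-BEC, 33.7 to 50.8 in LN-LEC and 9.09 to 21.4 in D-LEC. Of 6 T cell markers 5 were higher in LN-BEC than LN-LEC, and of 4 NK cell markers 2, while no marker of these lists was higher in LN-LEC in that comparison. The 6 T cell markers summed to 205 to 390.0 in LN-BEC, 35.5 to 51.5 in LN-LEC and 8.02 to 35.3 in D-LEC. The B cell genes Ms4a1 and Cd79a had means of 122 and 82.6 in LN-BEC, above LN-LEC (edgeR adjusted p = 0.000905 and 0.000241) and D-LEC (0.000129 and 0.00025). Cd79b, also a B cell gene, gave 299 to 412 in LN-BEC, 303 to 429 in LN-LEC and 1.65 to 17.7 in D-LEC. The NK cell sums were 57.8 to 137, 5.65 to 17.6 and 269 to 309, with Ncr1 at 0 in LN-LEC and D-LEC and with Klrb1c, at a mean of 288, making up the D-LEC sum. Per length, S1pr4 was 5.68 to 8.26 times Ptprc in LN-BEC and 4.91 to 10.01 times in LN-LEC, which overlap, and 14.8 to 33.1 times in D-LEC. The part of leukocyte RNA in the difference of S1pr4 was not tested.

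**Figure D3:**
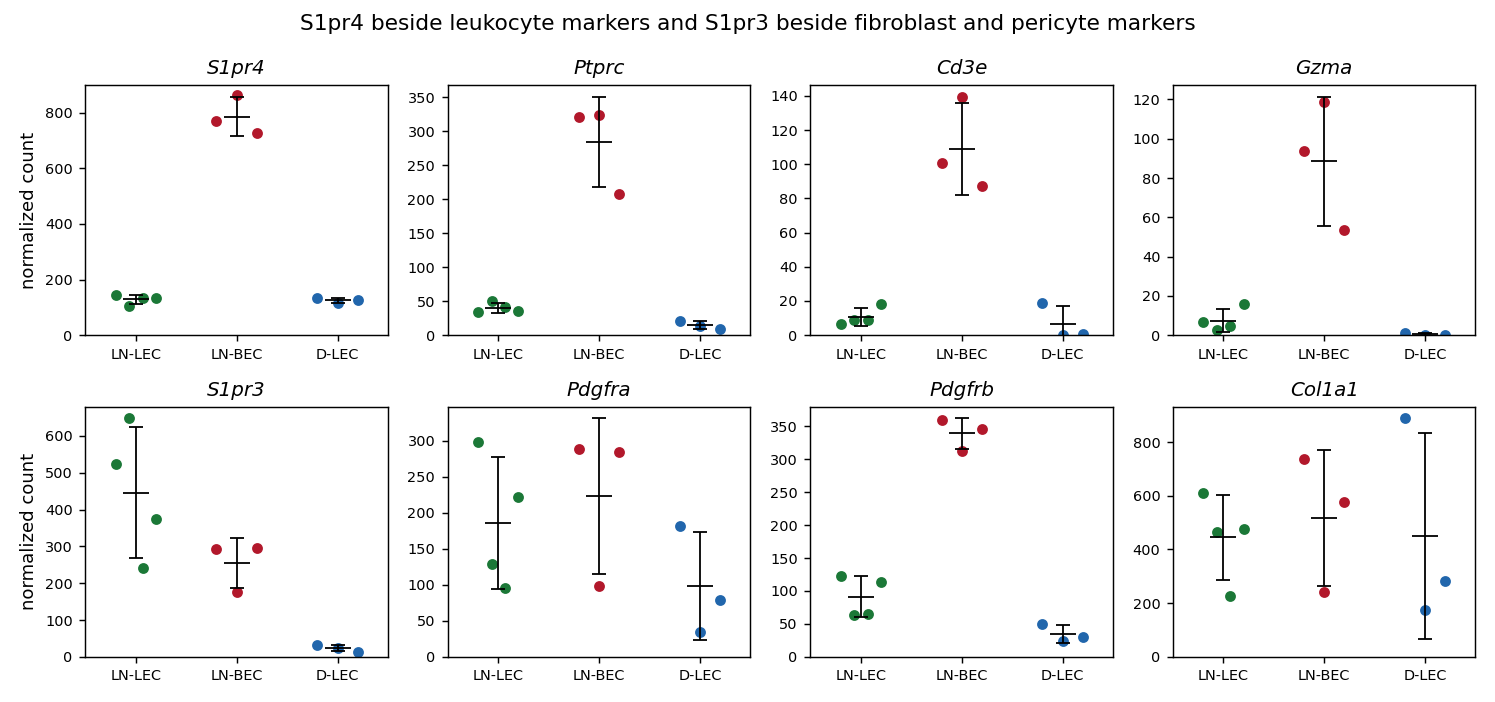
Normalized counts per library of S1pr4 beside the leukocyte genes Ptprc, Cd3e and Gzma (upper row), and of S1pr3 beside the fibroblast and pericyte genes Pdgfra, Pdgfrb and Col1a1 (lower row). Points are libraries and bars are mean ± SD, with each axis from 0. All 4 genes of the upper row are highest in the LN-BEC libraries, and in the lower row LN-LEC replicate 3 and LN-BEC replicate 2 are lowest of their populations for S1pr3, Pdgfra and Col1a1. Leukocyte markers that are not drawn did not all follow the upper row. Klrb1c had means of 288 in D-LEC and 5.63 in LN-BEC, Cd68 had 451 and 284, and Cd79b had 367 in LN-LEC and 364 in LN-BEC.

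S1pr5 (chr9:21047361-21052887, minus strand), a receptor known from NK cells and from oligodendrocytes, was near the limit of detection. Its raw counts were 19, 4 and 11 in LN-BEC, 4, 4, 3 and 6 in LN-LEC and 3, 1 and 3 in D-LEC, and LN-BEC replicate 2 lay among the lymphatic libraries. Summed over libraries and scaled by size factors, LN-BEC exceeded D-LEC by a ratio of 4.48 (34 against 7 counts, exact 95% counting interval 1.96 to 11.99). The edgeR fit called D-LEC against LN-BEC with an adjusted p of 0.035, although the libraries overlapped. The call was lost in DESeq2 (adjusted p = 0.052), in a fit of the libraries of these populations alone (edgeR adjusted p = 0.075), and without LN-BEC replicate 1 (0.16), LN-BEC replicate 3 (0.067), D-LEC replicate 2 (0.11) or D-LEC replicate 3 (0.083). The other comparisons did not pass (edgeR adjusted p of 0.15 for LN-LEC against LN-BEC and 0.39 for LN-LEC against D-LEC). Gzma, an NK and cytotoxic T cell gene, gave 93.7, 118 and 53.6 normalized counts in LN-BEC, highest in replicate 2, which was lowest of LN-BEC for S1pr5. Of the other NK cell markers, Klrb1c had means of 288 in D-LEC, 5.63 in LN-BEC and 0.638 in LN-LEC. Ncr1 and Eomes had means of at most 2.66 in every population. The part of NK cell RNA in the level of S1pr5 was not tested.

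Per length the order of the top genes was the same in each population, S1pr1, Spns2 and then Sgpp1, and the ranges of these neighbours did not overlap. In LN-LEC the next genes were Sgpl1 (6.10 ± 0.298 FPKM), Sphk2 (4.71 ± 0.465), Sphk1 (4.06 ± 0.629), S1pr3 (3.26 ± 1.29), S1pr2 (2.49 ± 0.293), S1pr4 (1.76 ± 0.217) and S1pr5 (0.0572 ± 0.0119), where Sphk2, Sphk1, S1pr3 and S1pr2 overlapped with their neighbours. In LN-BEC S1pr4 moved up to rank 4 with 10.6 ± 1.05 FPKM, clear of its neighbours, ahead of Sphk2 (5.03 ± 0.190), Sgpl1 (4.06 ± 0.195) and Sphk1 (3.83 ± 0.110). S1pr3 (1.83 ± 0.481) and S1pr2 (1.37 ± 0.226) overlapped there. In D-LEC S1pr3 dropped to rank 9 with 0.171 ± 0.0640 FPKM, below S1pr4 (1.70 ± 0.126) and S1pr2 (0.539 ± 0.0158), and Sphk2 (4.54 ± 1.29) and Sgpl1 (4.48 ± 0.486) overlapped. S1pr5 was last in each population.

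**Figure D4:**
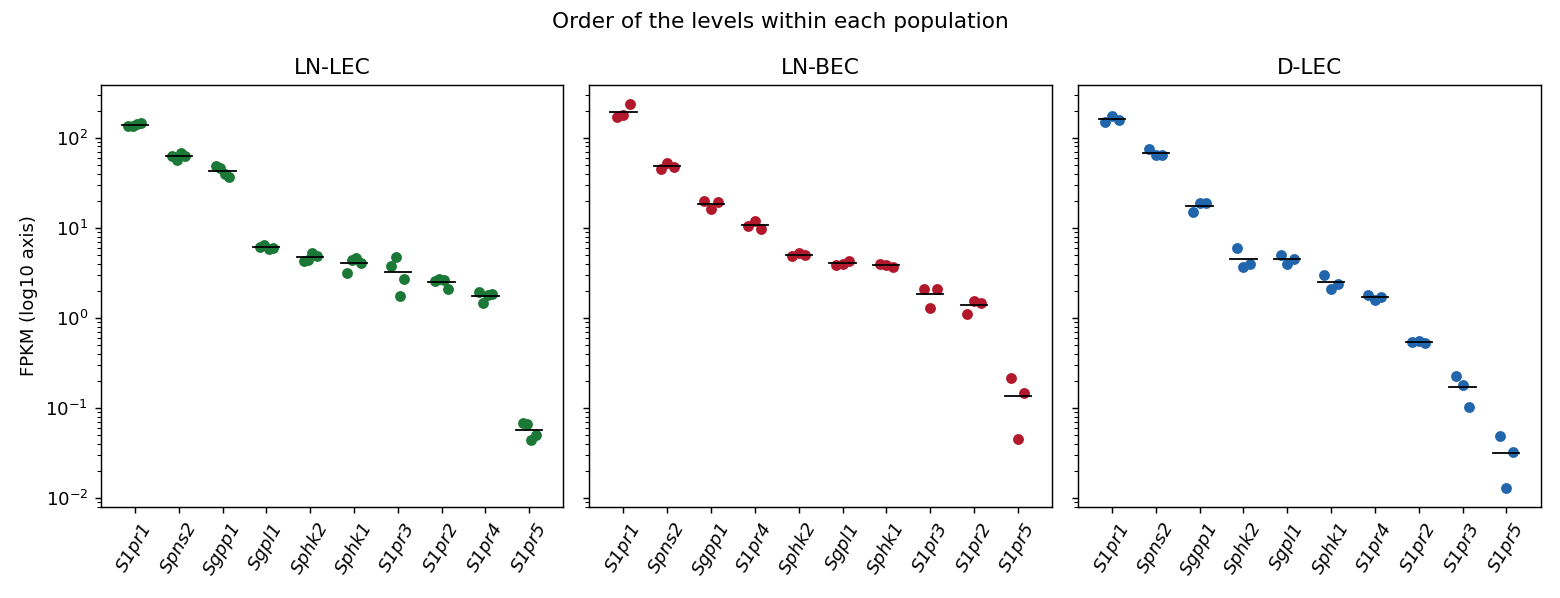
FPKM of the 10 genes in each library, ordered by the mean of each population, on a log10 axis. Points are libraries and black lines are means. S1pr1 leads at 139 to 195 FPKM, S1pr4 ranks 4 in LN-BEC, and the mean of S1pr3 lies below that of S1pr2 only in D-LEC.

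Among 10250 genes with a mean of at least 100 normalized counts, those whose log2 levels over the 10 libraries correlated most with each gene were listed as a description, since points of a population share its other differences. For S1pr4 these were Vwa1 (Pearson r = 0.997), an extracellular matrix gene at 6803 normalized counts in LN-BEC against 302 in LN-LEC, and Pltp (r = 0.996). For S1pr2 they were Sbno2 (r = 0.998) and the cytokine signalling suppressor Socs1 (r = 0.994, means of 548 in LN-LEC, 196 for LN-BEC and 49.2 for D-LEC). For S1pr3 they were the hyaluronan receptor Cd44 (r = 0.990) and the TGF beta receptor Tgfbr1 (r = 0.982). For Sgpp1 they were Ppp4r2 and Gk5 (r = 0.994 each), for Sgpl1 Mvp (r = 0.977) and Tfe3 (r = 0.967), and for Spns2 Rab3il1 and Dnalc4 (r = 0.961 each). The closest genes were less alike for Sphk1 (Csnk2a2, r = 0.945, and Arhgef7, r = 0.940), Sphk2 (Ube2r2, r = 0.937, and Ccdc163, r = 0.923) and S1pr1 (Mak16, r = 0.926, and Trabd, r = 0.902).

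Of 56 other genes around the pathway, in 6 lists, 52 passed the filter. In LN-LEC against LN-BEC 17 were higher in LN-LEC and 17 in LN-BEC, in LN-LEC against D-LEC 12 were higher in LN-LEC and 15 in D-LEC, and in D-LEC against LN-BEC 17 were higher in D-LEC and 19 in LN-BEC. Over all genes 38.2%, 45.8% and 48% were called in these comparisons, so calls in 34, 27 and 36 of 52 genes, and in the lists taken singly, are given as counts only. Plpp1 and Plpp3, which remove phosphate from S1P and related lipids, were lower in LN-LEC, unlike Sgpp1. Plpp3, a lipid phosphate phosphatase of the cell surface, gave 950.1, 884, 865 and 1196 normalized counts in LN-LEC, 18716, 19537 and 18731 for LN-BEC and 4691, 4706 and 4683 for D-LEC. It was thus lowest in LN-LEC, where Sgpp1 and Sgpl1 were highest, by 19.3-fold against LN-BEC (log2 fold change -4.27, SE 0.11, edgeR adjusted p = 1.39e-11) and 4.74-fold against D-LEC (-2.25, SE 0.11, edgeR adjusted p = 1.07e-09). Plpp1 was 4.24-fold higher in LN-BEC and 4.404-fold higher in D-LEC than in LN-LEC (edgeR adjusted p = 2.29e-09 and 1.31e-09). Plpp2, of the same family, was like Sgpp1 higher in LN-LEC than D-LEC, by 1.52-fold (edgeR adjusted p = 0.00811), and its change against LN-BEC did not pass (edgeR adjusted p = 0.88). Sgpp2, the paralogue of Sgpp1, had means of 14.8 in LN-LEC, 100.3 for LN-BEC and 21.1 for D-LEC, and its difference between LN-LEC and D-LEC did not pass (edgeR adjusted p = 0.32). Of the 5 genes of this list, 3 were higher in LN-BEC and 0 in LN-LEC, 1 was higher in LN-LEC and 3 in D-LEC, and 1 was higher in D-LEC and 3 in LN-BEC, in the same order of comparisons.

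Of 7 other transporters, Spns paralogues and carriers, 2 were higher in LN-LEC and 1 in LN-BEC, 3 in LN-LEC and 1 in D-LEC, and 0 in D-LEC and 4 in LN-BEC, by comparison. Spns3, a paralogue of the exporter, had means of 89.9 in LN-LEC, 17.8 for LN-BEC and 8.61 for D-LEC, and the transporter Abcg2 had 1964, 13576 and 6518. Among 14 G alpha subunits, receptor kinases, arrestins and S1PR1 regulators, 5 were higher in LN-LEC and 6 in LN-BEC, 2 in LN-LEC and 4 in D-LEC, and 7 in D-LEC and 5 in LN-BEC. Gna12, a subunit used by S1PR2 and S1PR3, had means of 58.1 in LN-LEC, 60.5 for LN-BEC and 25.96 for D-LEC. It was higher in both node populations than in D-LEC (edgeR adjusted p = 0.0121 and 0.0115). Its level was low, at 1.01, 1.04 and 0.449 FPKM in the same order. Gna13, the other G12/13 subunit of the list, had 58.6, 42.4 and 61.2 FPKM, so its mean was not lowest in D-LEC. Arrb2, an arrestin that uncouples activated receptors, was 4.26-fold higher in LN-LEC than LN-BEC (log2 fold change 2.09, SE 0.13, edgeR adjusted p = 2.38e-08). Klf2, a shear-responsive factor known to drive S1pr1 transcription in T cells, gave 2331, 2304, 2724 and 4376 normalized counts in LN-LEC, 6362, 7700.2 and 12197 for LN-BEC and 11851, 11261 and 10349.8 for D-LEC. The LN-LEC libraries were lowest for both Klf2 and S1pr1. The mean of Klf2 was higher in D-LEC (11154) than in LN-BEC (8753) with overlapping libraries, and the mean of S1pr1 the reverse, and D-LEC replicate 1 had the most Klf2 and the least S1pr1 of its population. A link between these genes was not tested. Cd69, whose product removes S1PR1 from the surface of lymphocytes, had a mean of 56.5 in LN-BEC, 4.28 in LN-LEC and 2.10 in D-LEC. Per length it was at 1.13 FPKM in LN-BEC. Ptprc had means of 285, 40.3 and 14.9 in the same order, and the part of leukocyte RNA in the level of Cd69 was not tested.

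Of 10 tested genes of ceramide synthesis, 4 were higher in LN-LEC and 3 in LN-BEC, 0 in LN-LEC and 5 in D-LEC, and 5 in D-LEC and 2 in LN-BEC. Degs1, the desaturase that forms ceramide, had 11977 normalized counts in LN-LEC, 6030.4 for LN-BEC and 15290 for D-LEC. Degs2, which shares 13.6% of its exon bases with other genes, had 29.5 in LN-LEC and 61.8 in LN-BEC. The ceramide synthase Cers6 had means of 113 in D-LEC, 54.4 in LN-LEC and 28.2 in LN-BEC, and Cers4 had 1920.4 in LN-LEC and 2521 in D-LEC. Of 10 tested sphingomyelinases and ceramidases, 5 were higher in LN-LEC and 1 in LN-BEC, 3 in LN-LEC and 1 in D-LEC, and 4 in D-LEC and 1 in LN-BEC. The ceramidase Acer3 was 1.65-fold higher in LN-LEC than LN-BEC, and the ceramidase Asah2 1.79-fold higher in LN-LEC than D-LEC. Asah1 and Galc, lysosomal enzymes, were 1.34-fold and 1.35-fold higher in D-LEC than LN-BEC, and the sphingomyelinase Smpd3 had means of 81.7 in LN-LEC, 179 for LN-BEC and 177 for D-LEC. Of 6 tested genes of the related lipid lysophosphatidic acid, 1 was higher in LN-LEC and 3 in LN-BEC, 3 in LN-LEC and 1 in D-LEC, and 0 in D-LEC and 4 in LN-BEC. Its producing enzyme Enpp2 had means of 11864 in LN-LEC, 76561 for LN-BEC and 451 for D-LEC, Lpar1 had 2634 in LN-LEC and 220.5 in D-LEC, and Lpar4 and Lpar6 were 17.9-fold and 8.12-fold higher in LN-BEC than LN-LEC. Enpp2 shared with S1pr3 the lowest level in D-LEC, and with S1pr4 the highest in LN-BEC.

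**Figure D5:**
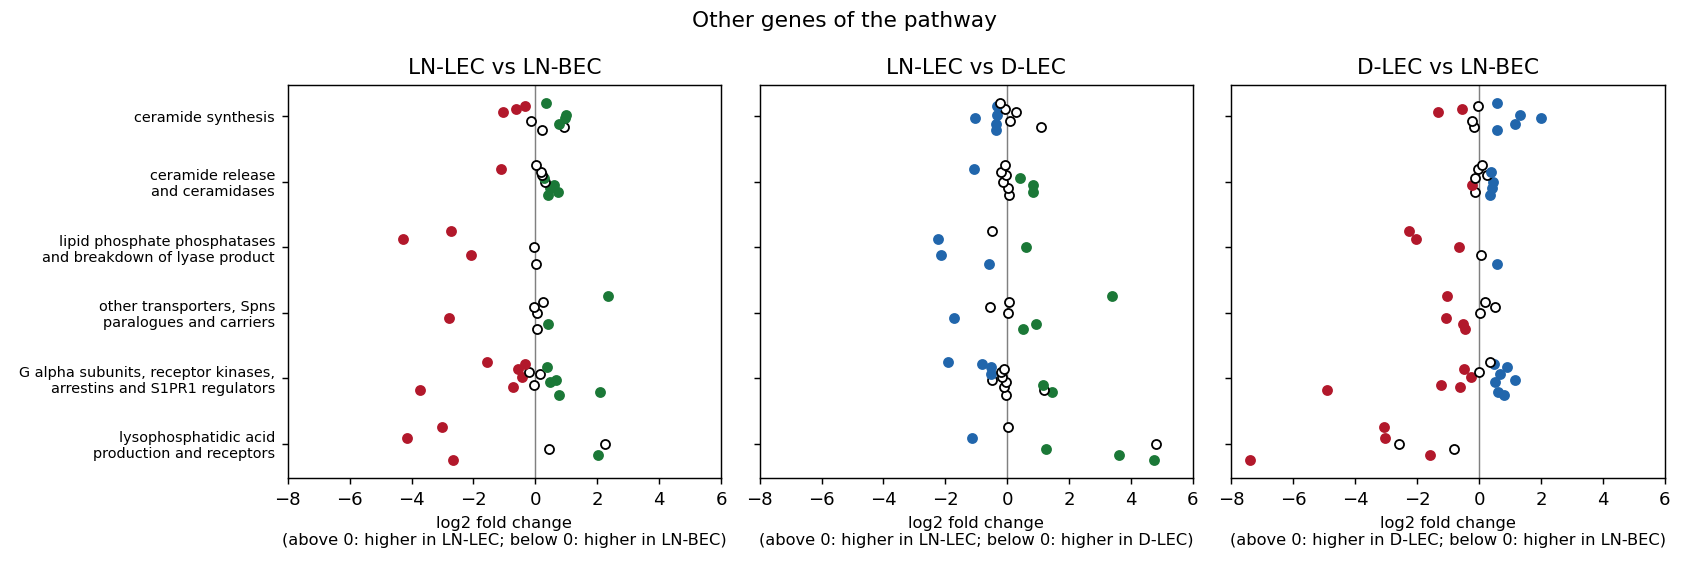
Fitted log2 fold changes of the 52 tested genes in the 6 lists around the S1P pathway, for the 3 comparisons. Each point is a gene, filled in the colour of the population with the higher level where the edgeR adjusted p was under 0.05 (green LN-LEC, red LN-BEC, blue D-LEC) and open otherwise. The 2 points of the phosphatase list farthest to the left in LN-LEC against LN-BEC are Plpp3 at -4.27 and Sgpp2 at -2.73, and Enpp2 is the point at -7.42 in D-LEC against LN-BEC.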

How the data were processed

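cDNA was amplified from sorted cells (Ovation RNA-Seq System V2, Nugen) and read from both ends. The authors used Fastx-trimmer for trimming, STAR for alignment to mm9 and featureCounts 1.4.4 for counting on genes. The deposited values are raw counts, not normalized. Per the file header, pairs were counted when both mates mapped, without regard to strand, and multi-mapping fragments or those overlapping several genes were dropped, which lowers genes with shared exons such as Sphk2. The deposited gene lengths were used for FPKM, with TMM library sizes.

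Groups follow the sample labels, which give no batch or pairing. Unnamed symbols (3752) were left out, and the test needed a mean of at least 1 normalized count in some population. The edgeR 4.0.16 model (R 4.3.3, TMM factors, robust quasi-likelihood) gave each population a mean over all 10 libraries, with 7 residual degrees of freedom, an F test and Benjamini-Hochberg adjustment within each comparison. Standard errors were derived from F and the log2 fold change. Alternatives were DESeq2 1.42.0 (Wald test, and its size factors in edgeR), no filter or one of 1 FPKM, fits to 2 populations, a non-robust fit and leaving out each library. In each pathway list the 2 called genes that changed most in each comparison are named. The 2 genes most correlated (log2 CPM, prior count 2) with each gene of at least 1 FPKM are also named. All 10 genes are named, and Plpp2 and Gna13 were named outside this rule. Klf2, Arrb2, Plpp1, Plpp3, Enpp2 and Cd69 were given in further detail after their values were seen. The genes and lists were chosen with earlier results of these data known. Intervals for S1pr5 cover counting error only. Older symbols were matched for 10 listed genes. A marker gene and its list's sum are not reported here. Promoters were matched by symbol for 9 of the 10 genes (not S1pr1). Figures were drawn with matplotlib 3.10.9 in Python 3.11.15.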

Additional observations from a re-analysis of the deposited data

How the results depend on the processing

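Over 16 alternative fits, 461 of 477 log2 fold changes of the 10 genes kept their direction and their side of the threshold, 6 lost the call, 7 gained it and 3 changed sign. The sign changes were small values: Sphk2 in LN-LEC against D-LEC at -0.060 without D-LEC replicate 2 and -0.019 without D-LEC replicate 3, and Sgpp1 in D-LEC against LN-BEC at 0.034 without D-LEC replicate 1. When single libraries were left out, these changes ranged from -0.060 to 0.31 for Sphk2 and from -0.15 to 0.034 for Sgpp1, and the highest value of Sphk2, without D-LEC replicate 1, passed. The number of genes called ranged from 6 to 7 in LN-LEC against LN-BEC, 5 to 6 in LN-LEC against D-LEC and 5 to 7 in D-LEC against LN-BEC when single libraries were left out, and a filter of at least 1 FPKM leaves S1pr5 untested. In an alternative added after the data were seen, without both LN-LEC replicate 4 and LN-BEC replicate 3, 28 of 30 changes had the same call and direction and 6, 6 and 5 genes were called. There S1pr1 in LN-LEC against D-LEC passed (log2 fold change -0.24, edgeR adjusted p = 0.043) and S1pr5 in D-LEC against LN-BEC did not (-2.01, edgeR adjusted p = 0.078). The share of S1pr1 among the receptors, taken over raw counts, was 98.7% in D-LEC, 94.2% in LN-LEC and 93.8% in LN-BEC. The cause of these changes was not tested. No paired analysis was possible because the labels give no replicate numbers that the populations share. At 3 to 4 libraries a population and with strand ignored, small changes and antisense reads are not resolved, S1pr5 is limited by its counts, and the spread describes pools of mice.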
